A study of Mus musculus with 12 samples.

Results

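Polyamines are small basic molecules that bind nucleic acids and are made in large amounts by dividing cells. Ornithine decarboxylase (Odc1) forms putrescine from ornithine, spermidine synthase (Srm) and spermine synthase (Sms) extend it with aminopropyl groups, and S-adenosylmethionine decarboxylase (Amd1) provides the donor of those groups. Antizymes (Oaz1 and Oaz2) bind ornithine decarboxylase and send it to the proteasome, antizyme inhibitor (Azin1) withdraws them from it, and spermidine/spermine acetyltransferase (Sat1), spermine oxidase (Smox) and polyamine oxidase (Paox) acetylate and oxidize spermidine and spermine. *Odc1* and *Srm* are widely described target genes of MYC. The genes examined here are these 10, taken by their symbols from a table of 41444 genes, and each has 1 row in it. Measured were RNA levels only, so the amount of the enzymes, the ribosomal frameshift that controls antizyme translation and the polyamines themselves are outside these data.

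The libraries came from mouse B-ALL cells, bone marrow pre-B cells of *Ctnnb1* fl/fl genotype that were grown with IL7 and then transformed with *BCR*–*ABL1*. The 2 groups compared both carried the ERT2 vector without Cre, so that β-catenin stayed intact, and both received 1 µM 4-OHT for 2 days. One group had no further treatment (control, 3 libraries) and the other also received 40 nM LY2090314, a small-molecule inhibitor of GSK3β, the kinase that marks β-catenin for degradation (3 libraries, termed A, B and C). The labels give 1 day of LY2090314 and the study's text a shorter time. Cells with Cre-ERT2, in which β-catenin is deleted, are not analysed here. The study describes its replicates as mice, the labels do not say so, and libraries A and B share the number 14 in their column names, so the p-values measure the spread between these libraries, which may in part be technical.

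Values are regularized log2 (rlog) values, which approximate the log2 of normalised read counts and pull genes with few reads towards their mean. Without read counts the depth of each library is unknown. All 14 B-lineage markers examined had a mean rlog of at least 3. *Cd3e*, the defining T-cell marker, was at −2.28 in all 6 libraries, and *Mpo* and 4 of 5 stromal markers were listed at 0. Some markers moved with treatment. The summed level of the B-lineage list on the log2 scale was 16.44 to 16.47 in control and 15.91 to 16.06 in treated libraries, that of the 4 plasma cell markers 11.35 to 11.47 and 12.90 to 12.94, that of the 6 myeloid markers (mostly *Lyz2*) 5.84 to 6.04 and 6.39 to 6.51, and that of the 6 T-cell markers (almost wholly *Lck*) 11.36 to 11.47 and 12.26 to 12.51. The B-lineage list did not move as one. *Cd79a*, *Il7r* and *Dntt* were higher in every treated library than in any control, and the other B-lineage markers were lower. *Cd79a* lay between 14.02 and 14.07 in control and between 14.17 and 14.47 in treated libraries. *Pax5* lay between 13.86 and 14.17 in control and between 12.37 and 12.59 in treated libraries. Nor did the plasma cell list move as one. *Xbp1* lay between 11.13 and 11.26 in control and between 12.56 and 12.59 in treated libraries and *Prdm1* at up to 6.11 in control and up to 10.55 in treated libraries, whereas *Sdc1*, the surface marker of plasma cells, was at up to 8.19 in control and up to 7.10 in treated libraries. Single markers were named after their values were seen, and the part of the markers in the results below was not tested.

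Sequence before the start site is shown for *Sms*, *Odc1* and *Amd1*, which were lower with LY2090314, and for *Sat1*, which was higher. RefSeq (GRCm38.p6) windows of 250 bases before to 50 after a start site were given for 8 of the 10 genes, and those of *Srm* and *Azin1* are not shown. Each sequence runs 5′ to 3′ on the strand of the gene and ends before the first annotated exon, with the letters of the E-box CACGTG, a palindrome bound by MYC and related factors, in capitals.
Sms, upstream window, chrX:157492288-157492537, minus strand: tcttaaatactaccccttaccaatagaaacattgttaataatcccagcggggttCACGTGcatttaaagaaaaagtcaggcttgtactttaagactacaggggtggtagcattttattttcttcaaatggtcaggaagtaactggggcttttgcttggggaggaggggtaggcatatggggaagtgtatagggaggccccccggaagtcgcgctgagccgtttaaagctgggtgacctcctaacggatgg
Odc1, chr12:17544623-17544793, plus strand: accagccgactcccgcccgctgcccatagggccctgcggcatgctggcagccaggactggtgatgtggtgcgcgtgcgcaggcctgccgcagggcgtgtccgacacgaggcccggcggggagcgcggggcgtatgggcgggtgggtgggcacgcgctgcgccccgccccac
Amd1, chr10:40302189-40302438, minus strand: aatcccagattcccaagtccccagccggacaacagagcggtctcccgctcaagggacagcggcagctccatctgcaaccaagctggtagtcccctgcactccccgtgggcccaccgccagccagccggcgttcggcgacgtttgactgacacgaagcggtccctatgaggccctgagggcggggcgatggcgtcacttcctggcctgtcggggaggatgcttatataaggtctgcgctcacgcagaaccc
Sat1, chrX:155216450-155216699, minus strand: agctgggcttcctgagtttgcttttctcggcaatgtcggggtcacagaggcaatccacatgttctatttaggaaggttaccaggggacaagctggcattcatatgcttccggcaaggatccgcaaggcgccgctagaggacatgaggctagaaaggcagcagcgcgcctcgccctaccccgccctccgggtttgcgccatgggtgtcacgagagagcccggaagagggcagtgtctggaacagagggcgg
CACGTG was present in 1 of the 10 windows of these 8 genes, against 7.15% of 32817 windows of the same length. It began 196 bases before the start site in the window of *Sms* shown above. The core letters of TCF and LEF sites, CTTTGA or CTTTGT on either strand, do not overlap the E-box. They were present in 1 of the 10 windows, against 31.2% of all windows. That window belongs to *Oaz2*, with the letters 77 bases before a start site that lies within the longest annotated form of the gene. The windows of *Smox* and *Paox* and the other window of *Sms* also lie within the annotated gene. These matches are descriptions of letters and of these windows alone.

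In cells treated with LY2090314, transcripts of the synthetic enzymes *Odc1*, *Srm* and *Sms* were lower and that of the acetylating enzyme *Sat1* was higher, whereas *Azin1* and *Oaz1* did not pass the test. Of the 10 genes, 9 had a mean rlog of at least 3 and were tested with limma among 11536 genes. *Odc1*, *Srm*, *Sms* and *Amd1* fell and *Sat1* and *Oaz2* rose at an adjusted p under 0.05, so that 6 of 9 passed. The groups overlapped for *Amd1*, and its call held in 2 and that of *Oaz2* in 3 of the 6 fits without 1 library. Over all genes tested 50.1% passed, 24.8% higher and 25.3% lower, and the share of the polyamine genes has to be read against that. The groups did not overlap in 6 of the 9 genes, 2 with treated libraries higher and 4 lower, against 58.6% of all genes tested, 29.1% higher and 29.5% lower. The median log2 difference was −0.41 over these 9 genes and 0.01 over all genes tested. RNA was taken from bulk cells, in which fewer expressing cells and less RNA per cell cannot be told apart.

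**Figure D1:**
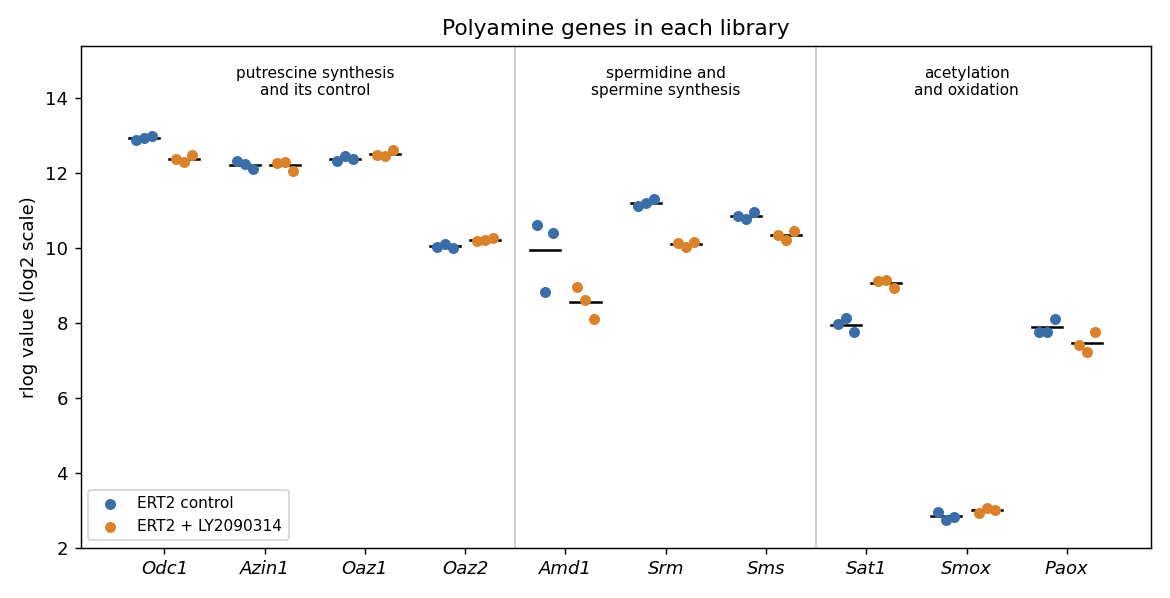
rlog value (log2 scale) of the 10 polyamine genes in each library, in 3 blocks by role, with control libraries in blue, LY2090314-treated libraries in orange and a bar at the mean of each group of 3. The groups are apart for *Odc1*, *Oaz2*, *Srm*, *Sms*, *Sat1* and *Paox*, and control library 2 of *Amd1* lies at 8.84, among the treated libraries.

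*Odc1* (ENSMUSG00000011179, chromosome 12, 17544794 to 17551505, GRCm38), the entry enzyme of the pathway, had rlog values of 12.90, 12.93 and 12.99 in the control libraries and 12.39, 12.29 and 12.48 in libraries A, B and C. Every treated library was below every control library. On the log2 scale *Odc1* fell by 0.55 with a standard error of 0.060 (adjusted p = 0.00018, limma), a 1.47-fold lower level, and 18.5% of all genes tested changed by as much or more in either direction. For each gene whose groups did not overlap, exact permutation of the libraries (two-sided) gave p = 0.10, below which 3 libraries against 3 cannot go.

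The regulators of ornithine decarboxylase had smaller differences in RNA. *Oaz1* (ENSMUSG00000035242, chromosome 10, 80826656 to 80829290), the main antizyme, was at 12.34, 12.46 and 12.37 in control and 12.50, 12.45 and 12.62 in treated libraries. The groups overlapped and the log2 difference of 0.14 (95% interval −0.0036 to 0.276) did not pass (adjusted p = 0.095, limma). *Azin1* (ENSMUSG00000037458, chromosome 15, 38487427 to 38519266) was at 12.33, 12.24 and 12.12 against 12.27, 12.29 and 12.07. Its difference of −0.02 (95% interval −0.197 to 0.162, adjusted p = 0.87, limma) is bounded to a small range by these libraries, although a p above the threshold does not show that the level was the same.

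*Oaz2* (ENSMUSG00000040652, chromosome 9, 65668001 to 65690300), a second antizyme, was at 10.04, 10.10 and 10.00 in control and 10.18, 10.22 and 10.26 in treated libraries. All treated libraries were above all controls, by a small margin. *Oaz2* rose by 0.17 (standard error 0.051, adjusted p = 0.023, limma). The adjusted p rose to 0.056 when each library was centred on its median and to at most 0.068 with 1 library left out, where the call was lost in 3 of 6 fits (without control library 1, control library 3 or treated library B).

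*Srm* (ENSMUSG00000006442, chromosome 4, 148591503 to 148594993), which makes spermidine, had the clearest fall of the 10 genes. Its values were 11.12, 11.21 and 11.30 in control and 10.13, 10.02 and 10.16 in treated libraries. The groups lay far apart relative to the spread within either (SD 0.092 and 0.071, n = 3 each). *Srm* fell by 1.11 (standard error 0.063, adjusted p = 5.6e-06, limma), a 2.15-fold lower level, and ranked number 172 among the falls of 11536 genes.

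*Sms* (ENSMUSG00000071708, chromosome X, 157443855 to 157492287), which makes spermine from spermidine, had values of 10.85, 10.79 and 10.96 in control and 10.35, 10.23 and 10.45 in treated libraries. Again no treated library reached the lowest control. *Sms* fell by 0.53 (standard error 0.072, adjusted p = 0.00059, limma), a 1.44-fold lower level.

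*Amd1* (ENSMUSG00000075232, chromosome 10, 40287458 to 40302186), the source of aminopropyl groups, had the largest difference of the 10 genes and the least even values. The control libraries were at 10.63, 8.84 and 10.40 and the treated libraries at 8.97, 8.62 and 8.11. Control library 2 was below treated library A, so the groups overlapped, and the SD of the controls was 0.97 against at most 0.27 in either group for the other 9 genes. *Amd1* fell by 1.39 (standard error 0.44, 95% interval −2.42 to −0.359, adjusted p = 0.032, limma), and the exact permutation test gave p = 0.20. Without control library 2 the difference was −1.95 (adjusted p = 0.00086, limma), without control library 1 it was −1.05 (adjusted p = 0.099) and without control library 3 it was −1.17 (adjusted p = 0.10). The call was also lost without treated library B (adjusted p = 0.067) or C (0.082), and with libraries A and B counted as 1 sample (0.053), and over all alternatives its adjusted p ranged from 0.00086 to 0.12. The difference stayed negative in the 9 settings that recompute it, and the size of the fall of *Amd1* is not settled by these libraries.

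**Figure D2:**
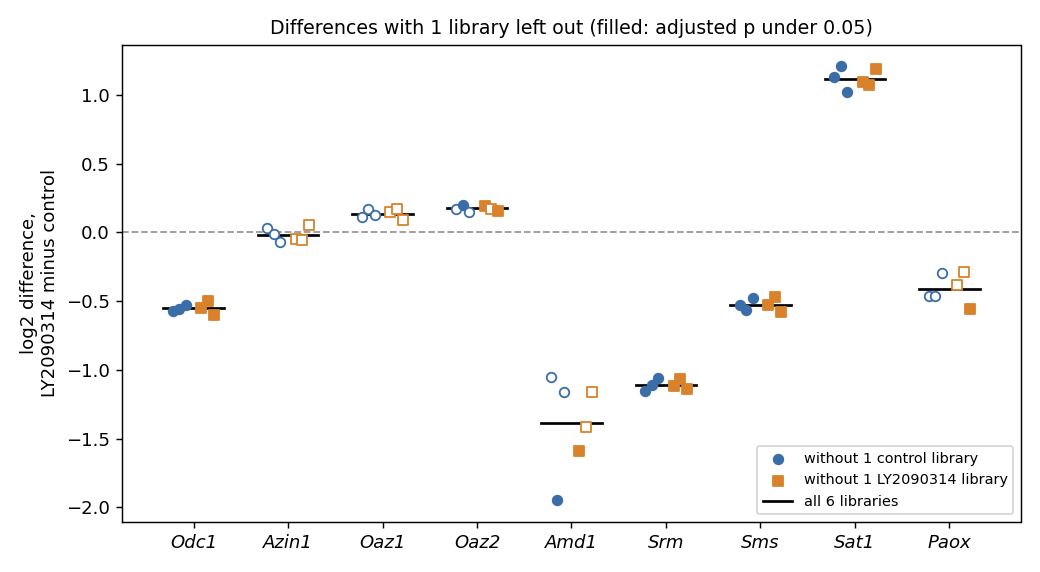
log2 difference (LY2090314 minus control, y axis) of the 9 tested polyamine genes with 1 library left out at a time, blue circles without a control and orange squares without a treated library, filled where the adjusted p is under 0.05, and a bar for all 6 libraries. *Amd1* spans −1.95 to −1.05 and *Srm* −1.15 to −1.06.

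*Sat1* (ENSMUSG00000025283, chromosome X, 155213132 to 155216449), whose product acetylates spermidine and spermine for export or oxidation, moved the other way. It was at 7.97, 8.13 and 7.75 in control and 9.11, 9.16 and 8.93 in treated libraries, with the lowest treated library above the highest control. *Sat1* rose by 1.12 (standard error 0.11, adjusted p = 0.00011, limma), a 2.17-fold higher level, and ranked number 402 among the rises of all genes tested.

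Neither oxidase had a called difference. *Paox* (ENSMUSG00000025464, chromosome 7, 140115799 to 140137224), which oxidizes acetylated polyamines, was at 7.77, 7.77 and 8.10 in control and 7.41, 7.23 and 7.76 in treated libraries. The groups were apart only narrowly, library C lying just under the lowest control, and the log2 difference of −0.41 (standard error 0.15, 95% interval −0.766 to −0.0529) did not pass (adjusted p = 0.057, limma). It passed with quantile normalization (adjusted p = 0.034) and without library C (−0.56, adjusted p = 0.0096). *Smox* (ENSMUSG00000027333, chromosome 2, 131491496 to 131525922), which oxidizes spermine directly, was at 2.94, 2.75 and 2.82 in control and 2.92, 3.07 and 3.01 in treated libraries. The groups overlapped, with a log2 difference of 0.17 between the means (SD 0.095 and 0.078, n = 3 each). *Smox* was not tested in the main fit because its mean of 2.92 was just under the limit of 3. It did not pass when the limit was dropped.

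*Odc1*, *Srm*, *Sms* and *Sat1* passed the test in each of the 6 fits that left out 1 library. The differences of *Odc1* then lay between −0.60 and −0.50, those of *Sms* between −0.58 and −0.47 and those of *Sat1* between 1.02 and 1.21.

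Differences between 2 genes within a library do not depend on the scaling of that library, and 6 such pairs were compared. The excess of *Odc1* over *Oaz1* was 0.57, 0.47 and 0.62 in control libraries and −0.11, −0.16 and −0.14 in treated libraries, a change of −0.69 on the log2 scale. The sign of this quantity differed between the groups in every library, although rlog values of 2 genes are not set to length and the sign itself has no meaning for their relative abundance. *Odc1* minus *Sat1* went from 4.99 ± 0.22 to 3.32 ± 0.21 (SD, n = 3 each), a change of −1.67. Every treated library was lower in *Odc1* and higher in *Sat1* than every control library, so this pair had to separate. It adds nothing to the results of the 2 single genes. For the pair of synthases, *Srm* minus *Sms* was 0.26, 0.42 and 0.34 in control and −0.22, −0.21 and −0.29 in treated libraries, a change of −0.58. *Odc1* minus *Azin1*, a catalytically inactive relative of ornithine decarboxylase, changed by −0.53, and *Smox* minus *Paox* by 0.58. Of that last pair, *Paox* alone did not pass, and *Smox* was not tested in the main fit because its mean was under the limit of 3. *Oaz1* minus *Oaz2* was 2.34 ± 0.040 and 2.30 ± 0.064 (SD, n = 3 each) with overlapping groups. In 5 of the 6 pairs the groups did not overlap, each with p = 0.10 in the exact two-sided permutation test and 0.12 after Benjamini-Hochberg adjustment over the 6 pairs. The share of all gene pairs that separate was not computed, and of single genes tested 58.6% did so. The count of pairs is therefore no result about the polyamine genes. This p of 0.10 is the smallest that the permutation test can give here, so it cannot separate these 5 pairs by strength, and no other test of the pairs was run.

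**Figure D3:**
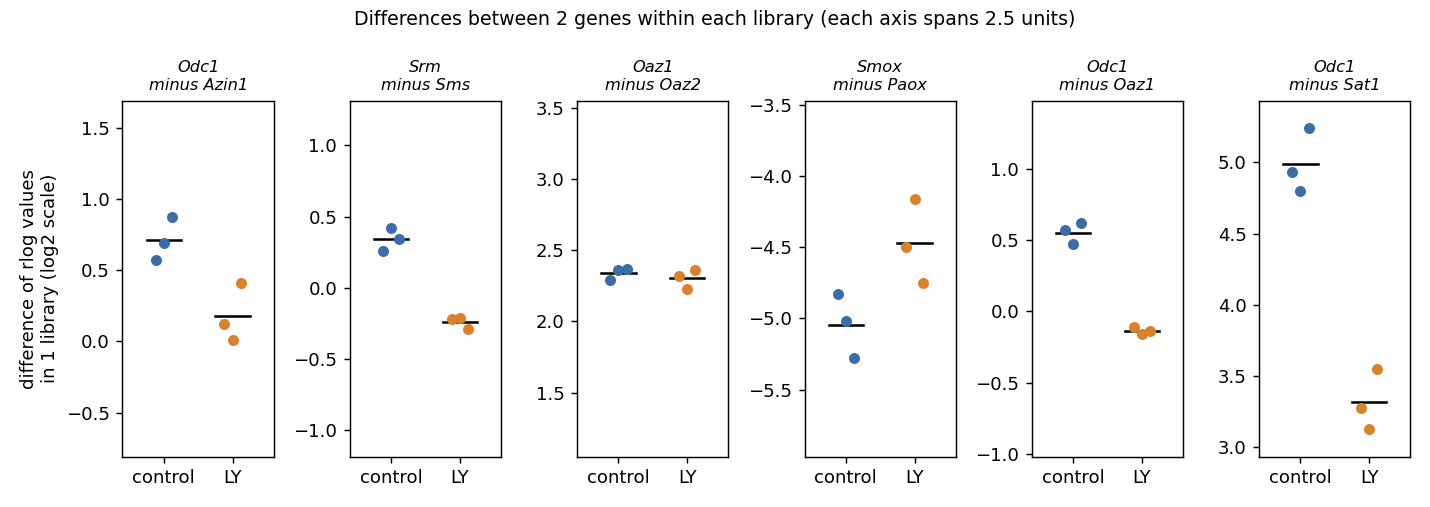
Difference of rlog values between 2 genes in each library (log2 scale, y axes of equal span), control libraries in blue, treated libraries in orange and a bar at the mean of each group of 3. Control and treated libraries are apart in 5 of the 6 pairs and overlap for *Oaz1* minus *Oaz2*. The share of all gene pairs that are apart was not computed.

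Levels of different genes were compared per length, as the mean rlog minus the log2 of the longest annotated transcript in kb. In control cells the order was *Odc1* (11.80), *Oaz1* (11.05), *Srm* (10.79), *Azin1* (9.94), *Oaz2* (9.16), *Sms* (8.97), *Amd1* (8.28), *Sat1* (7.51), *Paox* (5.66) and *Smox* (1.63). The levels of *Oaz2*, *Sms* and *Sat1* lay within the SD of 0.97 of *Amd1*. With LY2090314, *Odc1* (11.25) and *Oaz1* (11.19) differed by less than their spread (SD 0.095 and 0.084), *Srm* (9.68) came below *Azin1* (9.93), and *Sat1* (8.63) came above *Sms* (8.45) and *Amd1* (6.89). This order depends on the transcript taken. With the median length of the coding transcripts *Oaz1* came first in control cells (12.85 against 11.80 for *Odc1*), and *Smox* was last in both groups with every length tried.

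Reads of near-identical copies can be divided between genes. Of the distinct stretches of 101 bases, the read length, in the transcripts of *Amd1*, 66.9% also occur in transcripts of another gene, mostly of *Amd2*. *Amd2* was at 3.46, 3.22 and 3.42 in control and 3.44, 3.20 and 3.10 in treated libraries, with a difference of −0.12 (adjusted p = 0.42, limma), and *Amd-ps4* was between 1.52 and 1.66. Both were low beside *Amd1*. Whether copies took reads of *Amd1* in control library 2 was not tested. Summed with them on the linear scale, *Amd1* was at 10.64, 8.88 and 10.42 against 9.01, 8.66 and 8.17. For *Sms* 16.4% of the stretches were shared, mostly with *Sms-ps*, which fell by 0.57 (adjusted p = 0.0011, limma), and the sum of both fell by 0.53 as *Sms* alone did. For *Oaz1* 14.4% were shared with *Oaz1-ps*, which was at a mean of 10.79 in both groups, and the sum of both differed by 0.10. For *Paox* 22.7% were shared with *Gm19680*, which fell by 0.38 (adjusted p = 0.0496, limma). *Odc1* shared 9.9% with 7 genes, and the 4 of these with a row lay between −0.92 and 3.06. *Srm*, *Azin1* and *Smox* shared none. The values of *Amd1*, *Sms*, *Paox* and *Oaz1* are to that extent uncertain. On the opposite strand, 142 exon bases of *Paox* overlap *Echs1*, which fell by 0.18 (adjusted p = 0.024, limma). Likewise 358 exon bases of *Azin1* overlap *Gm49077*, whose symbol matched no row of values. Whether the counting used the strand that the kit marks is not stated.

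The wider pathway was described by 31 further genes in 6 lists. Of these, 15 were not tested for low values, 10 of them listed at 0 in all 6 libraries. Among the 16 tested, 10 fell, 2 rose and 4 did not pass, and their median log2 difference was −0.30. This is 75% against 50.1% of all genes tested. In the 6 fits without 1 library, 10 or 11 of these genes passed.

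The lists are small, and their counts stand beside 25.3% of all genes tested that were called lower. All 4 genes of hypusine formation, in which spermidine is used to modify the translation factor eIF5A, were tested and 3 fell. *Eif5a*, the factor itself, was at 14.60, 14.65 and 14.72 in control and 13.93, 13.93 and 14.13 in treated libraries. These groups were well apart, and *Eif5a* fell by 0.66 (standard error 0.076, adjusted p = 0.00025, limma). *Eif5a2*, named after its values were seen, fell by 0.30 (adjusted p = 0.033, limma) and passed in only 1 of the 6 fits without 1 library. *Dhps*, the first enzyme of that modification, overlapped between groups, with means of 8.55 ± 0.13 and 8.53 ± 0.15 (SD, n = 3 each). Of 5 genes that salvage methylthioadenosine, a by-product of spermidine and spermine synthesis, 3 fell and 2 did not pass, a share called of 60% beside 50.1% of all genes tested. *Enoph1* fell by 0.51, from 9.14 ± 0.018 to 8.64 ± 0.011 (SD, n = 3 each, adjusted p = 0.00018, limma), *Mri1* by 0.52 (adjusted p = 0.0083) and *Mtap*, the first enzyme of the salvage, by 0.25 (adjusted p = 0.0074).

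Among 4 genes listed under supply of the methyl donor S-adenosylmethionine, 3 were tested and 2 fell, again beside 25.3% of all genes. *Mat2a*, the synthetase subunit found outside the liver, fell by 0.35, from 12.48 ± 0.026 to 12.12 ± 0.051 (SD, n = 3 each, adjusted p = 0.00052, limma). Of 6 genes of ornithine and agmatine supply only 2 could be tested. *Oat*, which interconverts ornithine and glutamate semialdehyde, fell by 0.35 (adjusted p = 0.0014, limma). *Azin2*, a second antizyme inhibitor, was the one gene of its list to rise and was named after its values were seen. It lay near the limit of testing at a mean of 3.03, and its rise of 0.26 (adjusted p = 0.0499, limma) ranged in adjusted p from 0.00996 to 0.28 over the alternatives and passed in 1 of the 6 fits without 1 library. The 4 genes of the list of other antizymes, acetyltransferases and oxidases were listed at 0 in all libraries.

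The transporter genes moved apart. *Atp13a3*, a P5-type ATPase that takes up polyamines, was at 13.17, 13.11 and 12.84 in control and 13.88, 13.85 and 13.58 in treated libraries. The groups did not overlap, and *Atp13a3* rose by 0.73 (standard error 0.11, adjusted p = 0.00093, limma). *Atp13a2*, a lysosomal polyamine exporter of the same family, was at 12.02, 12.08 and 12.18 against 11.79, 11.68 and 11.74 and fell by 0.35 (adjusted p = 0.0015, limma). The other 6 transporter genes were not tested, with values of at most 0.46.

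**Figure D4:**
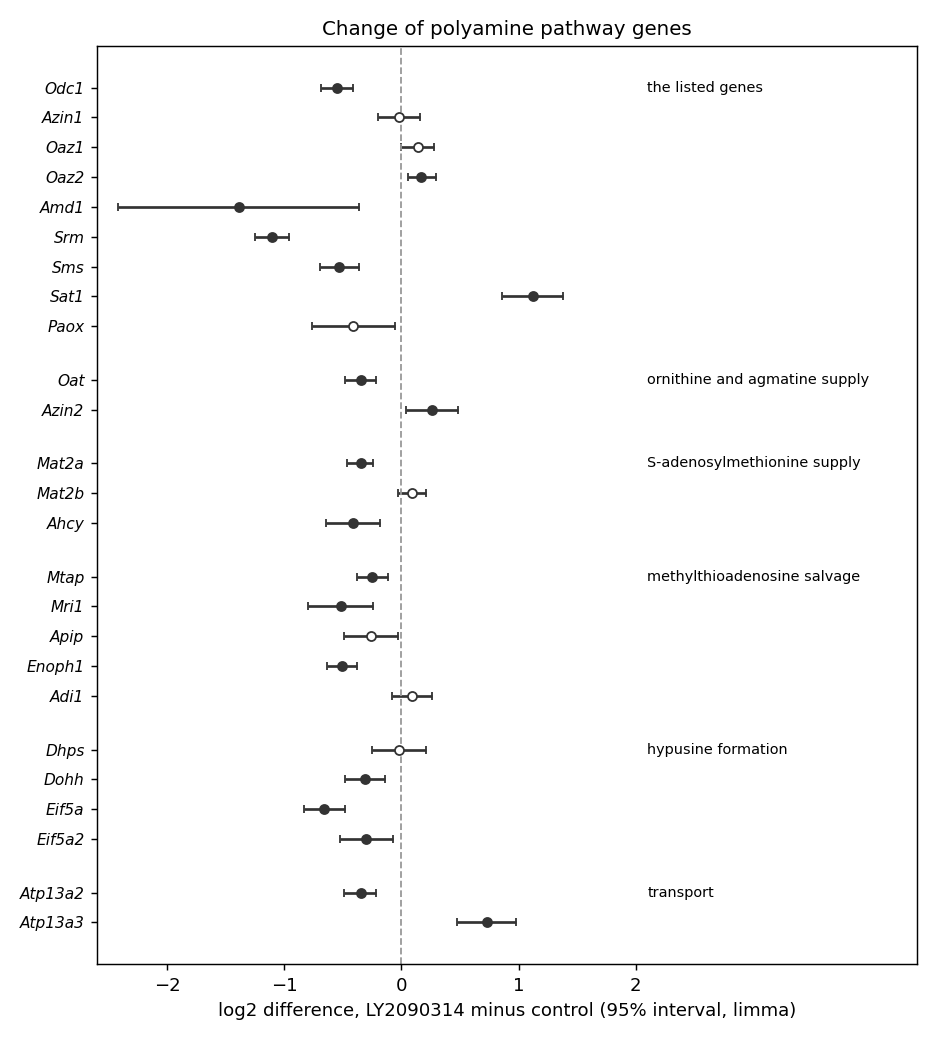
log2 difference (LY2090314 minus control, x axis) with its 95% interval from limma for the 9 tested polyamine genes and the 16 tested genes of the wider lists, filled where the adjusted p is under 0.05. *Srm*, *Amd1* and *Eif5a* lie to the left and *Sat1* and *Atp13a3* to the right, with the widest interval for *Amd1*.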

How the data were processed

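RNA-seq libraries of 12 samples in 4 groups were made with a stranded kit for polyadenylated RNA and sequenced as paired reads of 101 bases. Per the labels and methods, the authors checked quality with FastQC 0.11.9, SAMtools 1.7 and Picard 2.23.8, took transcript abundance from Salmon, aligned to GRCm38 with STAR and modelled expression in DESeq2 1.30.1. The authors deposited log2 values (rlog), scaled by size factors and shrunk for genes with few reads. The options are not given in the sources used here. Of 12 columns, 6 were matched to a group by name, and 6 Cre-named columns were not used because their names match no single group.

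Genes with a mean of at least 3 over 6 libraries (11536) entered a comparison of treated with control libraries in limma 3.58.1 under R 4.3.3 (empirical Bayes with a mean-variance trend, Benjamini-Hochberg adjustment, threshold 0.05). The fit was first run on simulated data in which few genes changed and the noise of the libraries was independent. In these data 50.1% of genes passed, so that run does not give the error rate here. Symbols matched 41157 of 41444 identifiers. Positions, transcripts and overlaps came from GENCODE vM21 of GRCm38, an earlier release than that of the authors. The genes and lists were chosen with earlier results of these data known. Named were all 10 polyamine genes, wider genes that passed with a log2 difference of at least 0.5, the first tested gene of each wider list that did not meet this, and copies and overlapping genes. Sums with copies and the *Amd* pseudogenes were added after values were seen.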

Additional observations from a re-analysis of the deposited data

How the results depend on the processing

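None of the 6 polyamine genes that passed changed direction in the 9 settings that recompute the log2 difference, and the others alter only the test, filter or threshold. Requiring a log2 difference of at least 1 left 693 of the 5778 genes, 3 of the 6 polyamine genes (*Srm*, *Amd1* and *Sat1*) and 0 of the 12 wider genes (limma, also 0 at an unadjusted p under 0.05, against 13 without the size limit). An adjusted p threshold of 0.01 left 4021 of the 11536 genes tested, 4 of the 9 polyamine genes and 10 of the 16 wider genes. With no lower limit on the mean, 5356 of 19658 genes passed. Among them were 5 of the 10 polyamine genes (*Odc1*, *Oaz2*, *Srm*, *Sms* and *Sat1*) and 10 of 21 wider genes, and the call of *Amd1* was lost (adjusted p = 0.12, limma). Leaving out 1 library gave 4734 to 6228 genes and 4 to 6 polyamine genes. In control cells the per-length order kept 4 of 10 places with the median and 2 with the shortest coding transcript. No paired analysis was possible because no column could be tied to a numbered replicate of the labels. The depth of the libraries is unknown, and shrinkage understates differences of genes with few reads such as *Smox* and *Azin2*.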

Other observations

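The uneven control values of *Amd1* are rare among well expressed genes. Of 7213 tested genes with a mean rlog of at least 8 in control cells, 5 had a control SD as large as that of *Amd1* (0.97) or larger, *Amd1* included, where the median control SD of all genes tested was 0.082. The others, named after their values were seen, were *Morc3* (6.21, 9.14 and 8.73 in control libraries 1 to 3), *Prkaa1* (9.43, 7.36 and 9.13), *Akap13* (9.56, 9.38 and 7.12) and *Gm28439* (9.82, 11.38 and 3.48). The low library was number 1 in *Morc3*, number 2 in *Prkaa1* and *Amd1* and number 3 in *Akap13* and *Gm28439*. Control library 2 was at least 1.5 below both other controls in 5 tested genes, against 3 for library 1 and 7 for library 3. It was at least 1.5 above both others in 1 tested gene, against 2 for library 1 and 7 for library 3.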
